A study of Mus musculus with 26 samples.

Results

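The subject is 38 genes of the mouse secretory pathway that serve protein folding and stress handling in the endoplasmic reticulum (ER), measured in brown fat by RNA immunoprecipitation and sequencing with an antibody against the RNA-binding protein IMP2. The genes were listed by symbol with no threshold on a measured value, but earlier results of these data were known when the set was chosen. Where a gene had several transcripts in a deposited table, the transcript with the highest summed count stood for it. Of the 38 genes, 33 are listed among the 9378 genes of the deposited table that holds an IgG control, called the IgG table, and all 33 passed the filter on low counts. Only Atf4, Ddit3 and Sar1a are among the 1189 genes of the other table, called the knockout table, and all 3 passed that filter. The 5 genes listed in neither table are the chaperone cofactors Dnajb9 and Sdf2l1, the stress sensors Ern1 and Eif2ak3, and the translocon subunit Sec61g, and they are not described further.

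The mice were males of 10 weeks on a C57Bl/6J background, fed normal chow and held at 4 °C overnight before brown fat was taken. The IgG table holds 1 IMP2 immunoprecipitate (IP), 1 IP with nonspecific IgG and 2 total RNA libraries, all from wild-type mice. In the knockout table, Imp2-/- mice gave 2 IMP2 IPs and 2 total RNA libraries, and their wild-type littermates gave the same. The labels name no promoter or cell type for the deletion. Whether libraries of 1 group are separate animals, pools or repeats is not said either, and every p-value therefore reflects the spread of these libraries alone. The series holds 26 samples, of which the 12 brown fat libraries were used and the 14 from liver were not analysed here.

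Proteins bound for the cell surface, the secretory organelles or the outside of the cell enter the ER as they are made. A signal sequence brings the ribosome to the Sec61 channel, the translocon-associated protein (TRAP) complex assists the transfer, and signal peptidase removes the signal. Inside, the chaperone BiP (Hspa5), the sugar-reading chaperones calnexin (Canx) and calreticulin (Calr) and the protein disulfide isomerases fold the chain. Folded cargo leaves in COPII vesicles that the GTPases Sar1a and Sar1b start, and misfolded protein is sent back to the cytosol for degradation. When unfolded protein accumulates, the sensors Ern1, Eif2ak3 and Atf6 switch on the unfolded protein response, in which the transcription factors Xbp1, Atf4, Ddit3 and Atf6 itself raise the output of folding genes or change cell fate. Fat cells use this compartment to make secreted products such as adiponectin and lipoprotein lipase. IMP2, encoded by Igf2bp2, binds mRNAs in the cytoplasm and affects their stability and translation.

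Many folding genes share a promoter sequence, the ER stress response element (ERSE), which Atf6 binds together with the CCAAT-binding factor NF-Y. Windows of 250 bases before to 50 bases after the gene start were available from RefSeq (GRCm38.p6) for 32 of the 38 genes, and both strands were searched for the ERSE letters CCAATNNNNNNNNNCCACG. The element was found in 7 of 32 windows (21.9%), against 39 of 32851 windows of all genes (0.119%). The set was picked as folding and stress genes, which are known to share it, so this excess is a description and not a test. The 8 matches are shown because they are the stretches of promoter that tie chaperones of this set to a known stress response element. Capitals mark the fixed CCAAT and CCACG parts, and each sequence is written 5′ to 3′ on the strand named.
Hspa5, chr2:34772025-34772043, plus strand: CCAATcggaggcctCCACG
Hsp90b1, chr10:86705638-86705656, minus strand: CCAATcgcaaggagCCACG
Hsp90b1, chr10:86705533-86705551, plus strand: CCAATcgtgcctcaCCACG
Dnajc3, chr14:118937827-118937845, plus strand: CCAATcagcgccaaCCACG
Creld2, chr15:88819520-88819538, minus strand: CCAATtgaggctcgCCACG
Calr, chr8:84847075-84847093, plus strand: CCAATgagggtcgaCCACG
Canx, chr11:50325800-50325818, minus strand: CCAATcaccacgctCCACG
Pdia6, chr12:17266491-17266509, plus strand: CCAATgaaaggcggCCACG
The end nearest the gene lay between 47 bases (Hspa5) and 194 bases (the first Hsp90b1 match) upstream of the start.

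A shorter form of the element, ERSE-II with the letters ATTGGNCCACG, was found in 2 further windows, against 0.0365% of all windows. As for the ERSE, this is a description and not a test. Its matches, with the fixed letters in capitals, are shown because they add the ER-associated degradation factor Herpud1 and the co-chaperone Dnajb11 to the genes above. The Herpud1 match ends 42 bases upstream of the gene start, and the Dnajb11 match begins 7 bases after it.
Herpud1, chr8:94386377-94386387, plus strand: ATTGGgCCACG
Dnajb11, chr16:22857852-22857862, plus strand: ATTGGcCCACG
The letters TGACGTGG, a core that Atf6 and Xbp1 bind, were in 0 of 32 windows and in 0.676% of all windows. CCAAT alone, which overlaps the ERSE and in reverse the ERSE-II, was in 22 of 32 windows (68.8%) and in 37.4% of all. These are matches of letters only, and no measurement of binding is part of the data.

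Summed counts over named genes were 1321756 in the IMP2 IP (library 25), 3750103 in the IgG IP (26), and 1466519 and 2701287 in total RNA (15 and 20). The 33 genes took 0.218% of these counts in the IMP2 IP, 0.218% in the IgG IP and 0.255 and 0.248% in total RNA. Levels are given as counts-per-million values (CPM) after TMM scaling (trimmed mean of M-values), and since they are not per length, no gene's level is compared with that of another. Ucp1, the uncoupling protein that defines brown fat, had 6913 CPM in the IMP2 IP, 6400 CPM in the IgG IP, and 5991 and 5324 CPM in total RNA. Igf2bp2 could not serve as a check of the Imp2-/- label, since the knockout table does not list it. All 10 skeletal muscle markers were listed in the IgG table, and their summed level was 8158 CPM in the IMP2 IP, 5647 CPM in the IgG IP, and 15881 and 8250 CPM in total RNA 15 and 20. Of 9 fibroblast markers 8 were tested, with sums of 1286, 896, 1588 and 1259 CPM in the same order, and of 10 macrophage markers 6, with sums of 151, 78.6, 176 and 143 CPM. Gene by gene, 7 of the 8 fibroblast markers had a log2 ratio below 0 in the IMP2 IP over total RNA (median -0.72). The remaining 1 was at least 2-fold higher. In the IgG IP 7 of 8 were below 0 (median -1.23). Of the 10 skeletal muscle markers, 8 were below 0 in the IMP2 IP (median -0.48) and 9 in the IgG IP (median -1.24). Below 0 in the IMP2 IP and the IgG IP were 4 and 5 of 6 macrophage markers, 3 and 5 of 6 endothelial markers, and 4 and 5 of 12 brown adipocyte markers. None of the 10 plasma cell and B cell markers was listed. In tissue samples, fewer cells of a type and less RNA per cell cannot be told apart. In an IP, neither can be told apart from lower recovery of the marker mRNAs. The part that these cells play in the values below was not tested.

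The comparison of the IMP2 IP with total RNA asks which ER mRNAs are recovered with the antibody. Most of the 33 genes had a lower level in the IP: the log2 ratio was below 0 for 24 and above 0 for 9, with a median of -0.46, beside a median of -0.03 and 52.3% below 0 over all 8966 genes tested. Their level was below both total RNA libraries for 20 genes and above both for 7, and over all genes 35.7% lay below both and 34.2% above both. At an adjusted p under 0.05 edgeR called 2 of the 33 genes, Ngly1 and Sar1b, both lower, against 0.903% of all genes in either direction. A level at least 2-fold lower was reached by 5 genes, against 10.9% of all genes, and at least 2-fold higher by 0, against 4.33% of all genes. Since the IP is 1 library, its spread was not measured and is assumed to be that of the total RNA pair.

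**Figure D1:**
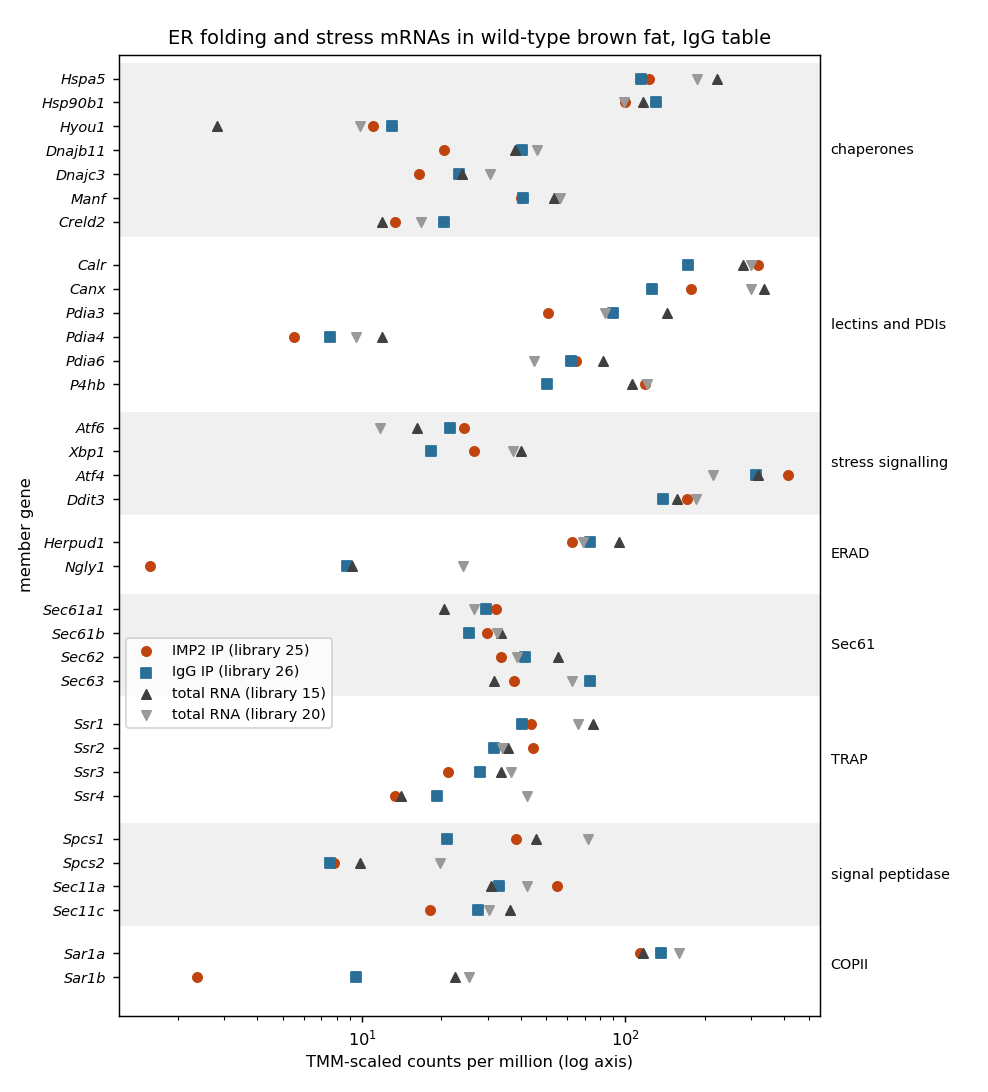
TMM-scaled CPM (log axis) of the 33 listed genes in the IMP2 IP (library 25), the IgG IP (26) and the total RNA libraries (15 and 20), 1 point per library, grouped by role. The IMP2 IP points of Ngly1 and Sar1b, at 1.57 and 2.36 CPM, lie left of the other libraries of the same gene, and the total RNA libraries stand apart for Hyou1 and Ssr4.

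Among the chaperones of the ER lumen, 6 of 7 had values below 0 in the IMP2 IP relative to total RNA. Hspa5, the master chaperone BiP (chromosome 2, 34772090 to 34776529, GRCm38.p6), had 123 CPM in the IMP2 IP, against 223 and 188 CPM in total RNA, and lay below both (log2 -0.73 ± 0.42 (SE), adjusted p = 0.692). Dnajb11, a co-chaperone that drives BiP, had 20.4 CPM in the IMP2 IP, against 37.99 and 46.2 CPM in total RNA, so that its level was more than 2-fold lower (log2 -1.05 ± 0.51, adjusted p = 0.583). Dnajc3, another BiP partner, had 16.5 CPM against 23.9 and 30.7 CPM, and the secreted stress factor Manf had 40.1 CPM against 53.5 and 56.5 CPM. Both lay below the total RNA pair. Hsp90b1, the ER form of Hsp90, had 99.8 CPM in the IMP2 IP, against 117 and 98.9 CPM in total RNA, and Creld2, a stress-induced disulfide isomerase, had 13.4 CPM against 12.0 and 16.7 CPM, so neither stood outside the total RNA pair. The exchange factor Hyou1 was the exception in direction, at 11.0 CPM in the IMP2 IP against 2.81 and 9.85 CPM in total RNA (log2 0.68 ± 0.72, adjusted p = 0.899). Its lower total RNA value rests on 4 counts, and without that library, 15, the log2 ratio was 0.17, against 1.95 without library 20.

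The sugar-reading chaperones went different ways. Canx (chromosome 11, 50293957 to 50325673) had 178 CPM in the IMP2 IP, against 336 and 301 CPM in total RNA, and lay well below both (log2 -0.84 ± 0.41, adjusted p = 0.597). Calr, its soluble relative, had 321 CPM in the IMP2 IP, against 281 and 301 CPM in total RNA (log2 0.14 ± 0.40, adjusted p = 0.972). Of the disulfide isomerases, Pdia3, which works with both lectins, had 51.1 CPM in the IMP2 IP, against 144 and 83.8 CPM in total RNA (log2 -1.15 ± 0.45, adjusted p = 0.345). Its total RNA values differ from each other, and without library 15 the log2 ratio was -0.70. Pdia4 had 5.50 CPM against 12.0 and 9.48 CPM, from 7 counts in the IMP2 IP. P4hb and Pdia6 lay between their total RNA values, with 119 CPM against 106.2 and 121 CPM and 65.2 CPM against 82.3 and 45.1 CPM.

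Transcription factors of the stress response had the only group median above 0 among the 8 roles, at log2 0.32 over 4 genes. Atf6, a membrane-bound factor cut free under stress, had the highest value of the set, with 24.4 CPM in the IMP2 IP against 16.2 and 11.7 CPM in total RNA (log2 0.82 ± 0.58, adjusted p = 0.783). Atf4, the factor whose translation rises when general initiation is blocked (chromosome 15, 80255184 to 80257545), had 416 CPM in the IMP2 IP, against 319 and 216 CPM in total RNA (log2 0.64 ± 0.39, adjusted p = 0.725). Both stood above the total RNA pair, and neither passed the threshold. Ddit3, the factor CHOP that Atf4 switches on, had 171 CPM in the IMP2 IP, between the 157 and 186 CPM of total RNA. Xbp1, whose mRNA is spliced by Ern1, had 26.7 CPM against 40.1 and 37.5 CPM, and its single listed transcript does not separate the spliced form.

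The largest differences were in a degradation factor and a vesicle GTPase. Ngly1, which strips sugars from glycoproteins sent for degradation (chromosome 14, 16249314 to 16311926), had 2 counts in the IMP2 IP, against 13 and 64 counts in total RNA, or 1.57 CPM against 9.15 and 24.3 CPM. Sar1b, the COPII GTPase needed for large lipoprotein cargo (chromosome 11, 51763663 to 51791953), had 3 counts in the IMP2 IP, against 32 and 67 counts in total RNA, or 2.36 CPM against 22.5 and 25.4 CPM. Both were below each total RNA library. The lowest count of any listed transcript in the IMP2 IP was 2, so Ngly1 was at that floor and Sar1b close to it. The ratio of Ngly1 in the IMP2 IP was 0.172 to total RNA 15 (95% counting interval 0.0188 to 0.759) and 0.0648 to total RNA 20 (0.00768 to 0.244). For Sar1b the ratios were 0.105 (0.0205 to 0.335) and 0.0928 (0.0187 to 0.283). The fitted values were log2 -3.42 ± 0.97 for Ngly1 (adjusted p = 0.0462) and -3.32 ± 0.86 for Sar1b (adjusted p = 0.0172). Without total RNA library 20, where Ngly1 was higher, its value was log2 -2.50, and without library 15 it was -3.90. Limma-voom called neither, at adjusted p = 0.188 and 0.155, and Ngly1 also missed the threshold without the filter on low counts (0.0611) and with transcripts summed per gene (0.0783).

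The companions of this pair showed smaller differences. Sar1a, the closely related GTPase (chromosome 10, 61680285 to 61693297), had 114 CPM in the IMP2 IP, against 117 and 160 CPM in total RNA (log2 -0.28 ± 0.42, adjusted p = 0.931). Herpud1, a membrane scaffold of the degradation machinery, had 62.9 CPM in the IMP2 IP, against 94.97 and 69.0 CPM in total RNA (log2 -0.38 ± 0.44, adjusted p = 0.914). Each lay below both total RNA libraries, though close to the lower of them.

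Among the entry machinery, Sec61b, a small channel subunit, had 29.9 CPM in the IMP2 IP, against 33.8 and 32.6 CPM in total RNA, and Sec62, a partner for post-translational transfer, had 33.8 CPM against 55.6 and 38.7 CPM. Sec61a1, the channel itself, was above the pair, with 32.2 CPM against 20.4 and 26.5 CPM, and Sec63, which recruits BiP to the channel, was within it, with 37.7 CPM against 31.7 and 62.9 CPM. None of these 4 passed a 1.5-fold difference, and their median was log2 -0.25. In the TRAP complex 3 of 4 subunits were below 0, with a median of log2 -0.71: Ssr1 had 44.0 CPM against 75.3 and 65.9 CPM, and Ssr3 had 21.2 CPM against 33.8 and 36.8 CPM. Ssr2 was above both, with 44.8 CPM against 35.9 and 34.1 CPM. Ssr4 was more than 2-fold lower in the fit (log2 -1.12 ± 0.59, adjusted p = 0.646), but its 13.4 CPM in the IMP2 IP stood beside 14.1 and 42.4 CPM in total RNA, and without library 20 the log2 ratio was -0.07.

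Signal peptidase split between its subunits. The accessory subunits Spcs1 and Spcs2 had 38.5 CPM in the IMP2 IP against 45.7 and 72.4 CPM in total RNA, and 7.86 CPM against 9.85 and 19.7 CPM. Of the catalytic subunits, Sec11c had 18.1 CPM against 36.6 and 30.3 CPM, and Sec11a had 55.0 CPM against 31.0 and 42.4 CPM. Spcs1, Spcs2 and Sec11c were thus below both total RNA libraries and Sec11a above both, and their median was log2 -0.75.

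**Figure D2:**
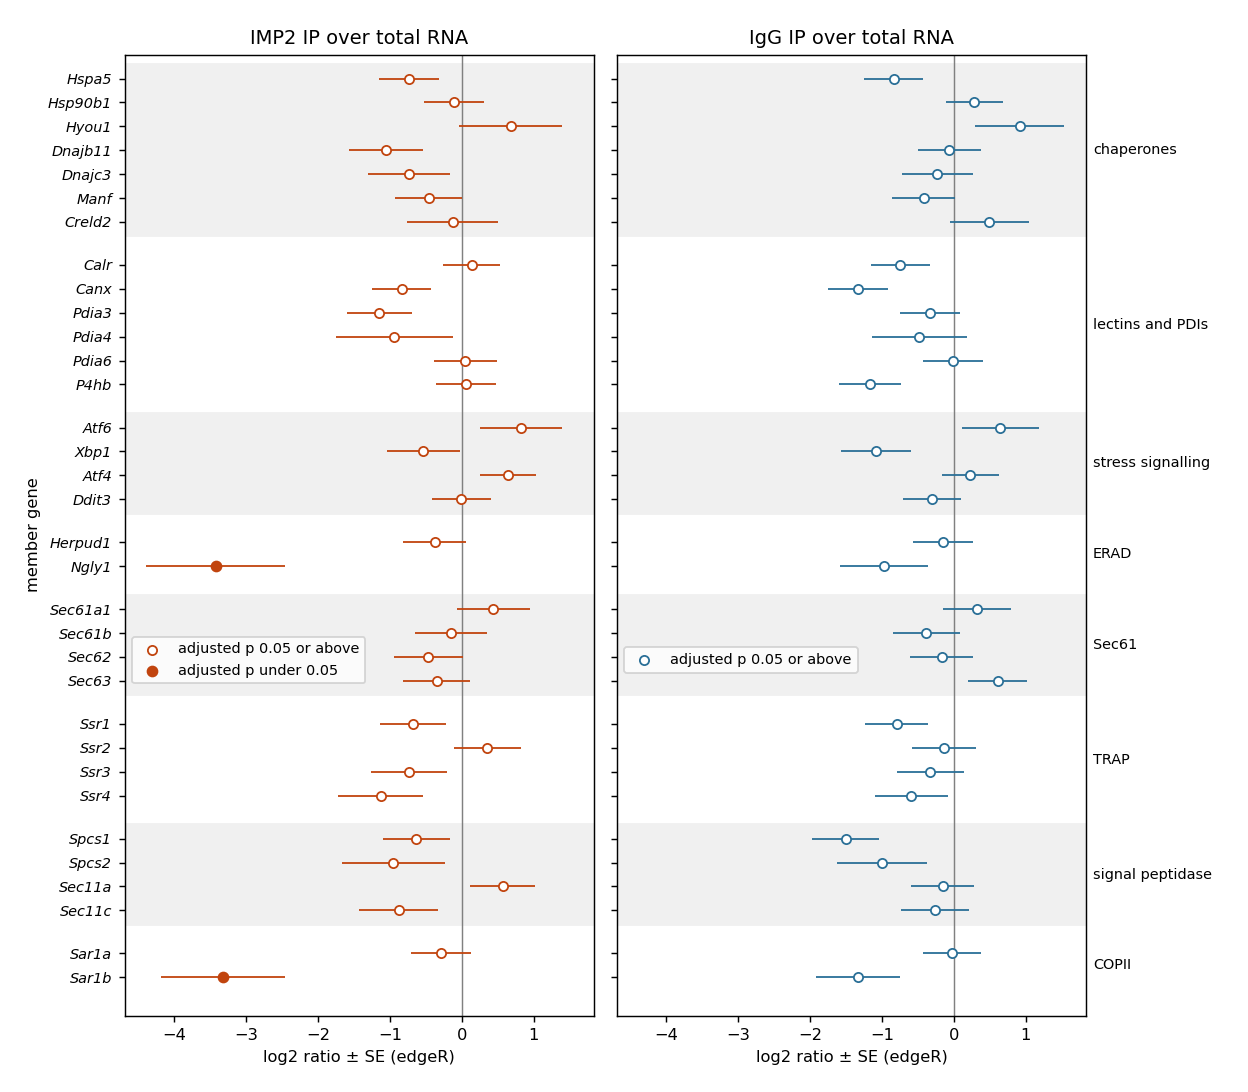
Log2 ratios to total RNA with standard errors from edgeR for the 33 genes, IMP2 IP in the left panel and IgG IP in the right, where a filled point marks an adjusted p under 0.05. Filled points appear for Ngly1 and Sar1b in the left panel, and most other points lie left of 0 in both panels.

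The IgG IP shows which mRNAs come down without the IMP2 antibody. Relative to total RNA, 26 of the 33 genes were below 0 and 7 above, with a median of log2 -0.31, beside -0.01 and 50.3% below 0 over all genes. The level was below both total RNA libraries for 18 genes and above both for 6, and over all genes 36.3% lay below and 37.9% above. EdgeR called 0 of the 33 genes, against 2% of all genes. An unadjusted p under 0.05 was reached by 6 of the 33, all lower, against 527 higher and 768 lower of all 8966 genes. Limma-voom called Canx and Spcs1 lower, at adjusted p = 0.0395 and 0.0410, against 203 of all genes in either direction. A level at least 2-fold lower was reached by 6 genes, against 9.64% of all genes, and at least 2-fold higher by 0, against 7.02% of all genes. The IgG IP and the IMP2 IP are set against the same total RNA libraries, so the values of the pair of comparisons are not independent.

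All 6 lectin chaperones and disulfide isomerases were below 0 in the IgG IP. Canx had 126 CPM in the IgG IP, against 336 and 301 CPM in total RNA (log2 -1.34 ± 0.42, adjusted p = 0.0611). P4hb, the abundant disulfide isomerase that is also a subunit of prolyl hydroxylase (chromosome 11, 120560298 to 120573253), had 50.6 CPM against 106.2 and 121 CPM (log2 -1.17 ± 0.43, adjusted p = 0.135). Calr had 174 CPM against 281 and 301 CPM (log2 -0.74 ± 0.41, adjusted p = 0.397). In each case the IgG IP lay below both total RNA libraries, as it did for Pdia4. Pdia3 (log2 -0.33) and Pdia6 (-0.02) lay between the total RNA libraries, and without library 15 they stood at log2 0.10 and 0.46. The sum of the collagen-rich fibroblast marker list was lower in the same library, as given above. Most of these markers were below 0 relative to total RNA in both IPs, and their part in these values was not tested.

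Among the other roles, Spcs1 (chromosome 14, 30999826 to 31001666) had the lowest log2 ratio of the set in the IgG IP, with 21.0 CPM against 45.7 and 72.4 CPM (log2 -1.50 ± 0.46, adjusted p = 0.0550). Sar1b had 9.53 CPM against 22.5 and 25.4 CPM (log2 -1.33 ± 0.59, adjusted p = 0.254), Xbp1 18.3 CPM against 40.1 and 37.5 CPM (log2 -1.08 ± 0.49, adjusted p = 0.269), and Spcs2 7.57 CPM against 9.85 and 19.7 CPM (log2 -1.003 ± 0.62, adjusted p = 0.473). All 4 were below both total RNA libraries, but without library 20 Spcs2 stood at log2 -0.37. At the other end, Hyou1 had 12.9 CPM in the IgG IP against 2.81 and 9.85 CPM (log2 0.91 ± 0.62, adjusted p = 0.520), Atf6 21.5 CPM against 16.2 and 11.7 CPM (log2 0.64 ± 0.54, adjusted p = 0.617), and Sec63 73.3 CPM against 31.7 and 62.9 CPM (log2 0.61 ± 0.42, adjusted p = 0.520). Without library 15 Hyou1 stood at log2 0.39 and Sec63 at 0.22, and without library 20 they stood at 2.19 and 1.22.

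Several genes had low values in both IPs. With both IPs below both total RNA libraries there were 14 genes, Hspa5, Dnajc3, Manf, Canx, Pdia4, Xbp1, Ngly1, Sec61b, Ssr1, Ssr3, Spcs1, Spcs2, Sec11c and Sar1b, against 21.1% of all genes. Atf6, Hyou1 and Sec61a1 had both IPs above both total RNA libraries, against 20.9% of all genes. The 7 genes with an ERSE in the promoter window had a median of log2 -0.12 in the IMP2 IP and -0.23 in the IgG IP relative to total RNA. The 20 listed genes with a window and no ERSE, among them Herpud1 and Dnajb11 with an ERSE-II, had -0.58 and -0.36. The difference was not tested.

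Setting the IMP2 IP against the IgG IP asks for recovery beyond that of a nonspecific antibody. The set was centred near 0, with 17 genes below and 16 above and a median of log2 -0.03, beside -0.01 and 50.2% below over all genes. EdgeR called 0 of the 33 genes, against 0.234% of all genes. At an unadjusted p under 0.05, 1 of the 33 was higher and 2 lower, against 223 higher and 342 lower of all 8966 genes. Limma-voom also called 0 of the 33, against 18 of all genes. A level at least 2-fold higher was reached by 1 gene, P4hb, against 5.47% of all genes, and at least 2-fold lower by 2, Ngly1 and Sar1b, against 11.3% of all genes. Each side is 1 library, so counting intervals on the ratio cover counting error only.

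P4hb had 151 counts in the IMP2 IP and 207 in the deeper IgG IP, or 119 CPM against 50.6 CPM, a ratio of 2.35 (95% counting interval 1.89 to 2.91). As given above, its IMP2 IP value lay within the total RNA pair and its IgG value below it. Calr had a ratio of 1.85 (1.63 to 2.09), Spcs1 of 1.83 (1.26 to 2.63) and Sec11a of 1.66 (1.22 to 2.22). The intervals of Canx, Atf4, Ssr2 and Ddit3 also lay above 1, with ratios of 1.42, 1.33, 1.41 and 1.24. All 4 stress transcription factors were above 0 on the log2 scale in this comparison, from 0.18 for Atf6 to 0.54 for Xbp1, with none past 1.5-fold and adjusted p between 0.943 and 0.983. Under the model that takes in both tables, Atf4 stood at log2 -0.15 and Ddit3 at -0.11. That model also adds libraries and keeps fewer genes, and which of these changes moved the values was not tested.

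On the lower side, Ngly1 had 2 counts in the IMP2 IP and 36 in the IgG IP, a ratio of 0.179 (0.0208 to 0.694), and Sar1b had 3 and 39, a ratio of 0.247 (0.0489 to 0.778). EdgeR gave log2 -2.45 ± 1.07 (adjusted p = 0.681) and -1.99 ± 0.95 (adjusted p = 0.759). The intervals of Dnajb11 (ratio 0.504), Sec63 (0.515), Pdia3 (0.568) and Hsp90b1 (0.761) also lay below 1. Between the total RNA libraries, which are of one group, intervals lay above 1 for 6 genes and below 1 for 8 when library 15 was set against 20. That is the same number, 14, as for the IMP2 IP against the IgG IP. A counting interval that leaves out 1 thus also occurs between libraries of one group. Such intervals were counted for the 33 genes alone, so no share over all genes is given.

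**Figure D3:**
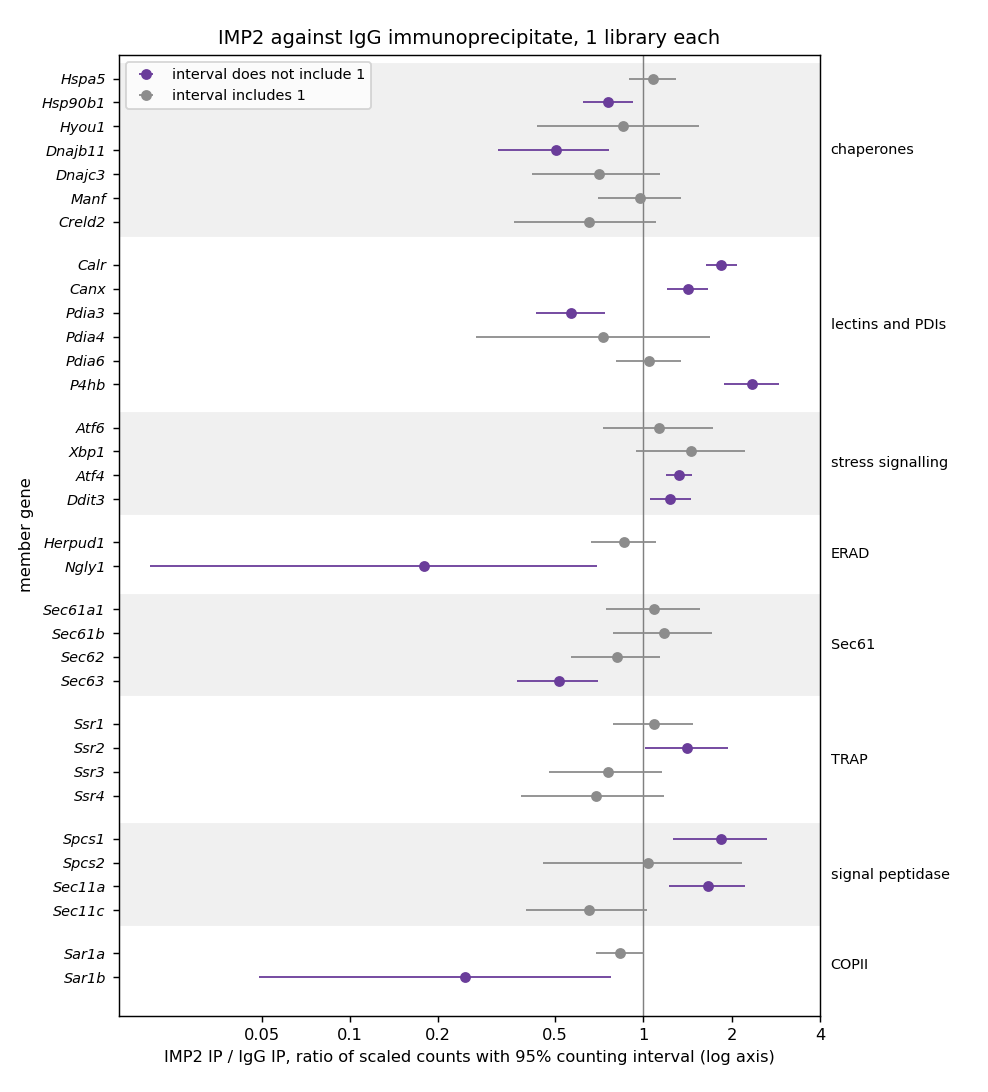
Ratio of the IMP2 IP (library 25) to the IgG IP (26) for the 33 genes on a log axis, with 95% counting intervals. The interval lies above 1 for 8 genes, led by P4hb at 2.35, and below 1 for 6, with Ngly1 at 0.179 and Sar1b at 0.247 resting on 2 and 3 counts.

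The knockout table gives replicate IPs and a genotype control for 3 of the genes. Its counts per library ran from 780333 to 4916160, and its CPM values are relative to listed genes only. Sar1a had 268 and 246 CPM in the wild-type IMP2 IPs, against 350 and 332 CPM in wild-type total RNA. The IPs were below both total RNA libraries, by log2 -0.41 ± 0.16 (SE, n = 2 per group), with an unadjusted p of 0.0326 and an adjusted p of 0.0973. Of all 1189 genes, 213 were higher and 243 lower at an unadjusted p under 0.05 with edgeR. Ddit3 had 246 and 192 CPM in the wild-type IPs against 335 and 272 CPM (log2 -0.47 ± 0.25, adjusted p = 0.205), and Atf4 had 358 and 361 CPM against 372 and 471 CPM (log2 -0.23 ± 0.25, adjusted p = 0.523). All 3 genes were therefore lower in both wild-type IPs than in both total RNA libraries. The share of all genes with that pattern was not counted, and 49.1% of them had a log2 ratio below 0. With edgeR, DESeq2 or limma-voom 0 of 3 passed the threshold, against 22.4% of all 1189 genes with edgeR. Atf4 was above 0 in the IgG table and below 0 here, and the IPs of the tables are different libraries.

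In knockout mice, Sar1a had 310 and 379 CPM in the IPs, against 344 and 409 CPM in total RNA, and the groups overlapped (log2 -0.13 ± 0.16, adjusted p = 0.575). Ddit3 had 204 and 269 CPM in the knockout IPs against 219 and 349 CPM (log2 -0.27 ± 0.25, adjusted p = 0.441), and Atf4 370 and 498 CPM against 330 and 520 CPM (log2 0.03 ± 0.24, adjusted p = 0.951). None of the 3 passed with edgeR, DESeq2 or limma-voom, against 26.3% of all genes called by edgeR. None had an unadjusted p under 0.05 with edgeR, against 234 higher and 258 lower of all 1189 genes.

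The IPs of the genotypes were also set against each other. Sar1a was lower in both wild-type IPs than in both knockout IPs, with the values above (257 ± 15.9 against 344 ± 49.4 CPM, SD, n = 2; log2 -0.42 ± 0.16, unadjusted p = 0.0280, adjusted p = 0.219). Atf4 was also lower in both wild-type IPs (360 ± 2.36 against 434 ± 90.9 CPM; log2 -0.27 ± 0.25, adjusted p = 0.582), by a small margin over knockout library 23. Ddit3 overlapped (219 ± 38.6 against 236 ± 45.4 CPM; log2 -0.10 ± 0.25, adjusted p = 0.854). EdgeR called 0% of all genes here, with 123 higher and 88 lower at an unadjusted p under 0.05, and DESeq2 called 93 genes, none of them among the 3.

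Total RNA asks whether the genotypes differ in the level of these mRNAs. Sar1a had 344 and 409 CPM in knockout total RNA and 350 and 332 CPM in wild-type total RNA (log2 0.14 ± 0.16, adjusted p = 0.759). Ddit3 averaged 284 ± 91.7 CPM in the knockout and 303 ± 44.3 CPM in the wild type (log2 -0.09 ± 0.25, adjusted p = 0.916), and Atf4 425 ± 135 CPM and 421 ± 69.9 CPM (SD, n = 2; log2 0.02 ± 0.24, adjusted p = 0.984). The groups overlapped for all 3 genes. Knockout libraries 18 and 19 differed widely, and leaving out 1 of them put Atf4 between log2 -0.35 and 0.30 and Ddit3 between -0.47 and 0.20. EdgeR called 0% of all genes, with 74 higher and 58 lower at an unadjusted p under 0.05, and DESeq2 called 35, none of them among the 3.

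Recovery that depends on IMP2 is the ratio of IP to total RNA in the wild type over the same ratio in the knockout. It was at log2 -0.28 ± 0.22 for Sar1a, -0.25 ± 0.34 for Atf4 and -0.20 ± 0.35 for Ddit3 (each adjusted p = 0.999). Over the 1189 listed genes this measure ended at log2 -0.30 on the low side and reached 0.81 on the high side, so a gene with a larger negative value has no row, and the low sign of these 3 is read from a table with that edge. Leaving out knockout total RNA 18 put Atf4 at log2 0.01 and Ddit3 at 0.07, and leaving out knockout total RNA 19 put them at -0.62 and -0.57. EdgeR called 0% of all genes, with 29 at an unadjusted p under 0.05, and DESeq2 also called 0. The 7 of 10 skeletal muscle markers listed in this table summed to 1354 and 6340 CPM in wild-type IPs, 315 and 1153 CPM in knockout IPs, 550 and 2250 CPM in knockout total RNA, and 2494 and 9824 CPM in wild-type total RNA, and their part in these values was not tested.

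**Figure D4:**
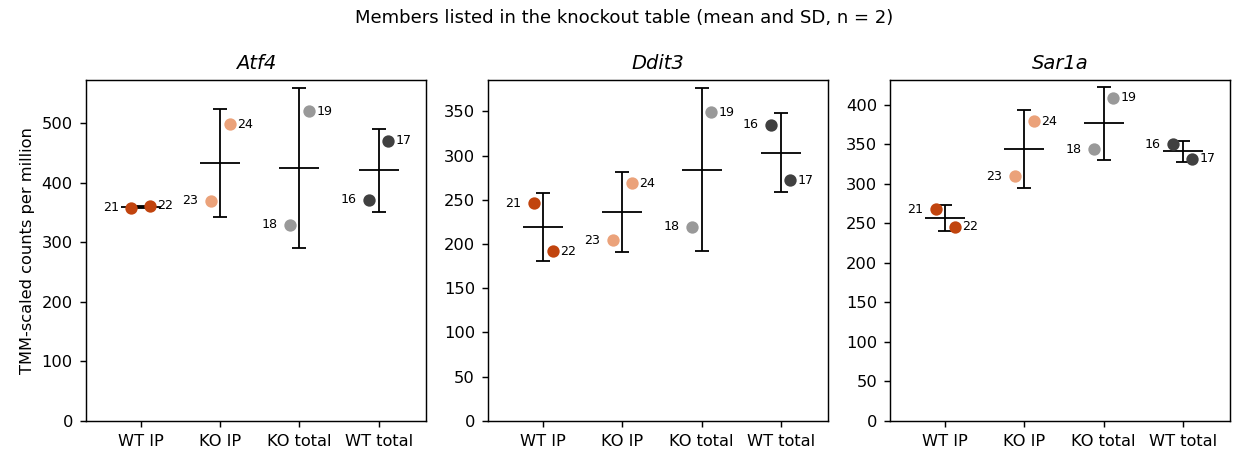
TMM-scaled CPM of Atf4, Ddit3 and Sar1a in the 4 groups of the knockout table, with library numbers beside the points and bars for mean and SD (n = 2). Sar1a in the wild-type IPs, at 268 and 246 CPM, lies below all 6 other libraries, while the groups of the other genes lie close together or overlap.

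Other genes of the same pathway give the surroundings of the set. Of 116 further genes in 9 lists of entry, glycosylation, folding, degradation and vesicle transport, 91 were tested in the IgG table. Relative to total RNA their median was log2 -0.06 in the IMP2 IP, with 54 below 0 and 37 above, and -0.23 in the IgG IP, with 57 below and 34 above. In the IMP2 IP over the IgG IP the median was log2 0.18, with 38 below and 53 above. Magt1, a subunit of the oligosaccharyltransferase that attaches sugars to entering chains, was the only one of the 91 that edgeR called. It was lower in the IMP2 IP relative to total RNA (log2 -2.43 ± 0.46, adjusted p = 0.000260) and at log2 -0.03 ± 0.40 in the IgG IP relative to total RNA. The IMP2 IP over the IgG IP, at log2 -2.40 ± 0.49 (adjusted p = 0.00142), sets 1 library against 1, and its SE and p take their spread from the total RNA pair alone, so it compares those libraries and not the antibodies. Beside Magt1, the ends of the range in the IMP2 IP relative to total RNA were the stress genes Trib3 (log2 1.23 ± 0.64) and Nupr1 (1.03 ± 0.40) and the coatomer subunit Copb1 (-2.49 ± 0.93), none of them called. In the IgG IP relative to total RNA they were Edem3 (log2 1.07 ± 0.88), Sec16a (0.99 ± 0.51), Krtcap2 (-1.45 ± 0.55) and Sec23b (-1.71 ± 0.75), and in the IMP2 IP over the IgG IP, beside Magt1, Sec23a (log2 1.78 ± 0.91), Dnajb12 (1.48 ± 0.74) and Copb1 (-1.75 ± 1.010), again without a call. Of the 116, the knockout table holds 8, all of them tested. Dad1, another subunit of that enzyme, rose in wild-type IPs over total RNA by log2 0.73 ± 0.14 (adjusted p = 0.00903) and in knockout IPs by 0.69 ± 0.14 (adjusted p = 0.00781). The folding enzyme Fkbp2 rose by log2 0.56 ± 0.17 in wild-type IPs (adjusted p = 0.0424). Nploc4, a cofactor that extracts proteins for degradation, fell there (log2 -0.40 ± 0.13, adjusted p = 0.0497). In knockout IPs over total RNA Fkbp2 stood at log2 0.38 and Nploc4 was again below 0, with neither called. Of all 1189 genes, edgeR called 22.4% in wild-type IPs and 26.3% in knockout IPs over total RNA. None of the 8 was called between genotypes. In knockout over wild-type total RNA the ends were Bcap31 (log2 0.16 ± 0.15), Dad1 (0.03 ± 0.14), Vcp (-0.37 ± 0.21) and Nupr1 (-0.59 ± 0.23), and in wild-type over knockout IPs they were Vcp (log2 0.59 ± 0.22), Nupr1 (0.51 ± 0.23), Nploc4 (-0.24 ± 0.12) and Bcap31 (-0.35 ± 0.16).

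Transcript rows and neighbouring genes limit some values. Dnajb11 has a pair of listed transcripts that differ, and the one not used had 8 counts in the IMP2 IP, 55 in the IgG IP, and 35 and 66 in total RNA, a log2 ratio of -1.98 in the IMP2 IP relative to the mean of total RNA, against -1.04 for the one used. The several transcripts of Canx, Hspa5 and Ssr4 carry identical counts. By the RefSeq annotation Hspa5 overlaps Rabepk, Pdia3 overlaps Catsper2, Pdia6 Atp6v1c2, Atf6 Gm29733, Ngly1 Oxsm, Spcs1 Glt8d1, Spcs2 Xrra1, and Ddit3 both Mbd6 and Mars1, all protein-coding. Whether reads were counted by strand is not stated, so counts of these genes may include reads of the neighbour.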

How the data were processed

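The authors deposited unscaled read counts, whole numbers for each RefSeq transcript, in 2 tables with no library in common. TopHat2 2.0.8, Cufflinks 2.1.1 and mm10 come from the submitters' processing notes. The counting tool, its use of strand, the annotation and the rule that picked the 1579 transcripts of the knockout table were not given in the sources used here. Accessions of the 117 and 835 transcripts without a symbol were matched to a RefSeq table (GRCm38.p6), and the 3 and 22 that stayed unnamed, with 8.65 to 29.2% and 7.39 to 15.8% of the counts per library, entered neither library sizes nor tests.

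Counts were scaled by TMM, filtered with filterByExpr and tested with the quasi-likelihood test of edgeR 4.0.16 in R 4.3.3, with Benjamini-Hochberg adjustment over all 1189 or 8966 genes tested and a threshold of 0.05. Residual degrees of freedom were 4 (knockout table) and 1 (IgG table), with biological coefficients of variation of 15.3 and 25.1%. Ratios of single libraries carry exact binomial intervals at 95%, which cover counting error only, since copies of 1 molecule cannot be told apart. Summed counts per library, from 780333 to 4916160, set the precision.

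Genes are named by a rule that takes all 38 members, Igf2bp2 and Ucp1, and from the other pathway lists those called and the 2 highest and 2 lowest values per comparison, given in the knockout table only between genotypes and not for IPs over total RNA within a genotype or their difference. Members and lists were chosen with earlier results of these data known. Alternatives were other scalings, filters and fold limits, summed transcripts, DESeq2 1.42.0, limma-voom (limma 3.58.1), the compared groups alone, both tables in 1 model, and leaving out each library. The scripts were tested on simulated counts. Promoter windows come from the RefSeq table. A description by protein length was planned and is not reported here.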

Additional observations from a re-analysis of the deposited data

How the results depend on the processing

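Of 1368 gene values recomputed under the alternatives, 1333 stayed within 1 SE of the reported value with no change of call, 29 moved by more than 1 SE, 4 lost a call, 2 gained one and 0 called values changed sign, while 57 of 1344 uncalled values, some of them within 1 SE, changed sign. In the IMP2 IP over total RNA, the number of the set called was 0 with limma-voom and 1 without the filter or with summed transcripts. The number 1.5-fold lower was 14 and higher 3, with 16 of the 33 genes and 5671 of all 8966 genes within that limit. All genes called there numbered 339 in the model of both tables, 22 with DESeq2 and 47 with limma-voom, against 81. In the IgG IP over total RNA the median of the set was log2 -0.14 by library size alone, -0.25 by upper-quartile scaling, -0.28 with limma-voom and -0.285 with all transcripts in library sizes. The number called was 2 with limma-voom, and the number 2-fold higher was 1 with library size alone and with limma-voom. At 1.5-fold 3 were higher and 11 lower, with 19 of the 33 genes and 5201 of all 8966 genes within that limit. All genes called there numbered 281 with both tables and 44 with DESeq2, against 179. In the IMP2 IP over the IgG IP the median was log2 -0.22 by library size alone. The number 1.5-fold higher was 4 and lower 7, with 22 of the 33 genes and 5472 of all 8966 genes within that limit. By library size alone and by upper-quartile scaling 4 were 2-fold lower. All genes called numbered 4 with DESeq2 and 32 by library size alone, against 21. Scaling by library size alone shifted the median over every gene tested by log2 0.17 in the IgG IP over total RNA and by -0.18 in the IMP2 IP over the IgG IP. In the knockout table DESeq2 called 93 genes between the IPs and 35 between total RNAs, where the compared groups alone gave 1. The cause of these differences was not tested. Other scalings moved the knockout table medians by up to log2 0.17.

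Leaving out 1 library gave 93 to 260 genes called in wild-type IPs over total RNA, 135 to 323 in knockout IPs over total RNA and 0 to 1 between the IPs. Without 1 total RNA library of the IgG table, which leaves no residual degrees of freedom and so no test, the median of the set was log2 -0.48 to -0.32 in the IMP2 IP with 1 gene 2-fold higher, and -0.36 (both -0.364 and -0.355) in the IgG IP with 0 to 2 genes 2-fold higher and 5 to 8 lower. DESeq2 gave Ngly1 and Sar1b no adjusted p, and the model of both tables holds neither, so no number called is given for these. No paired analysis was possible because the groups compared share no replicate numbers in the labels. Depth limits Ngly1, Sar1b and Hyou1 most, which rest on 2, 3 and 4 counts in 1 library each.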
